A study of Mus musculus with 8 samples.

Results

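The interferon response genes described here are 36 genes that type I and type II interferons switch on in many cells, taken by name with no threshold on a measured value. Of the 36, 35 had a row in the deposited count matrix of 31053 genes, and each of the 35 had at least 1 unique molecular identifier (UMI, a tag that counts 1 captured RNA molecule once) in the cells kept. Mx2 was not analysed here. By role, the 36 comprise 4 transcription factors, 2 genes of ISG15 conjugation, 5 nucleic acid sensors and their enzymes, 8 antiviral effectors, 7 interferon-inducible GTPases and 10 other induced genes.

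The cells came from livers of male C57BL/6 mice, bought at 6 to 8 weeks of age, that received an HFHC diet or a chow control diet for 20 to 32 weeks. Non-parenchymal cells were freed of dead cells, stained for CD45, CD31, CD146 and PDPN, sorted to enrich endothelium and sequenced on the 10x Genomics Chromium platform, with 4 HFHC and 4 control libraries labelled as separate animals. The sources differ on the diet's name: the design text expands HFHC with cholesterol, the sample titles with calorie. They also differ on HFHC 4, which its title numbers as animal 14 and its description as the fourth HFHC sample. No gene was altered in either diet group, and both groups share the strain, the sex and the sort. The study asked how the diet alters stromal cells of the liver, with the lymphatic vessels in view.

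Of 3416 deposited cells, 3192 remained after a barcode seen in several libraries was counted once, in the library with its highest UMI total. HFHC 1 to 4 kept 47, 74, 857 and 616 cells, and control 1 to 4 kept 55, 875, 574 and 94 cells. Library depth lay between 304090 and 2309209 UMIs in HFHC libraries and between 170448 and 1775987 UMIs in control libraries. HFHC 1, 2 and 3 and control 1 and 2 shared between 33 and 65 barcodes per pair of libraries, while other pairs shared at most 4. Cells were assigned to 14 classes by marker genes that include none of the 36, and class sums of at least 10 cells were used. The libraries hold different cells: liver sinusoidal endothelial (LSEC)-like cells numbered 548 in HFHC 4 and 543 in control 3, against at most 46 in any other library. Hepatocyte-like barcodes numbered 639 in HFHC 3 and 575 in control 2, although the preparation was of non-parenchymal cells. Lymphatic endothelial (LEC)-like cells reached 10 only in control 4, with 35 cells, so no diet comparison was possible in them.

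Marker UMIs were counted in the class sums. The gate used the same markers, so the presence of a class's own markers largely follows from it and is no separate check of the label. LSEC-like sums held 8 of 8 LSEC markers, at 11240 counts per 1000000 UMIs (CPM) in HFHC 4 and between 13230 and 18780 CPM in the control libraries. Hepatocyte-like sums held 9 of 9 hepatocyte markers, at 42820 CPM in HFHC 3 and 52730 CPM in control 2. The vascular endothelial-like sum of control 3 had more LSEC marker UMIs (8109 CPM) than vascular marker UMIs (2927 CPM), which goes against its label. The sum gated by globin genes carried hepatocyte markers at 39190 CPM in HFHC 3 and 34510 CPM in control 2, so it is called the globin-gated sum and given no cell type.

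Interferons bind receptors that act through JAK kinases and STAT factors. Type I interferons, made by many cells on sensing viral or self nucleic acid, act on interferon-stimulated response elements through a complex that holds IRF9 and STAT2, while interferon gamma, made mainly by T and NK cells, acts on gamma-activated sites. The induced proteins sense foreign nucleic acid, block entry, translation or release of viruses, and damage vacuoles that hold pathogens. In the liver, sinusoidal endothelium and Kupffer cells meet gut-derived microbial products first, and many of these genes are transcribed at a low level without infection.

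Promoter sequences of 28 of the 36 genes, spanning 250 bases before to 50 bases after the RefSeq start on GRCm38.p6, were searched on both strands for an interferon-stimulated response element, written here as GAAANNGAAA, and for a gamma-activated site, written as TTCNNNGAA. The first motif was found in 18 of the 28 genes (64.3%), against 3.99% of all 27025 genes with such a window. By role it was found in 1 of 4 transcription factors, in Isg15, in 3 of 4 sensors, 5 of 6 antiviral effectors, 5 of 6 GTPases and 3 of 7 other genes. The second motif was found in 9 of 28 genes (32.1%), against 9.55% of all genes, and overlapped the first in Bst2 and Ifitm3. The windows below are of genes picked from those that hold the first motif, so they do not stand for all members. Irf7, Xaf1, Ifi35 and Plscr1 had a window without it, and Ifi27l2a, Rtp4 and Iigp1 had no window. Sequences are printed 5′ to 3′ on the gene's strand, with capitals marking bases of a GAAANNGAAA match or of its reverse complement. They lie at chr4:156200845-156200926 (Isg15, minus strand), chr19:34640755-34640843 (Ifit1, plus), chr19:34583343-34583446 (Ifit3, plus), chr12:26456533-26456602 (Rsad2, minus), chr8:71537557-71537632 (Bst2, minus), chr7:141010695-141010772 (Ifitm3, minus), chr3:142620574-142620643 (Gbp2, plus), chr15:77411094-77411169 (Apol9a, minus) and chr15:77729005-77729080 (Apol9b, plus).
Isg15: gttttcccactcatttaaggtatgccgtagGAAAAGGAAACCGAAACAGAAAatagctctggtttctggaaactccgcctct
Ifit1: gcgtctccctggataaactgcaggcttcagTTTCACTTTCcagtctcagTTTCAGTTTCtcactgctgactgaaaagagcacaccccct
Ifit3: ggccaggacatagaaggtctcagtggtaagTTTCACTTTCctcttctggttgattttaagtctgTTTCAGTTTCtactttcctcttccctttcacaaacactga
Rsad2: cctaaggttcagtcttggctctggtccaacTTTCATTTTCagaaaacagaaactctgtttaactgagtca
Bst2: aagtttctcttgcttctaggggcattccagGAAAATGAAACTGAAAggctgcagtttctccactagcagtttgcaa
Ifitm3: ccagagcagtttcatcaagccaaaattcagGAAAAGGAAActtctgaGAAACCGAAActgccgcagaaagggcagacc
Gbp2: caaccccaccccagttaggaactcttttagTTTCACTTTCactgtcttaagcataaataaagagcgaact
Apol9a: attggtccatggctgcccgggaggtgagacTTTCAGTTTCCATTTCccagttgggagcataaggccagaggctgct
Apol9b: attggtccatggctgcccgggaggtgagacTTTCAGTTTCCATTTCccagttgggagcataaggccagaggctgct
Isg15 holds 3 overlapping matches, beginning 78 bases before the start, and Ifit1, Ifit3, Bst2, Ifitm3, Apol9a and Apol9b hold 2 each. In Ifitm3 both matches lie just after the RefSeq start. The Apol9a and Apol9b windows are identical over 76 of 76 bases. A match describes the letters of a window and says nothing of whether a factor binds there in these cells.

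The 36 genes lie on 17 chromosomes, and 14 of them lie within 1000000 bases of another member, in 6 groups. The groups are Ifit2, Ifit3 and Ifit1 on chromosome 19, Gbp7, Gbp3 and Gbp2 on chromosome 3, and Irgm1 and Ifi47 on chromosome 11. The others are Apol9a and Apol9b on chromosome 15, Mx1 and Mx2 on chromosome 16, and Ifitm3 and Irf7 on chromosome 7. Members of a group need not be next to each other. Counts are uncertain for Apol9a and Apol9b, and for Ifit3 and its copy Ifit3b, which are near-identical pairs. They are also uncertain for Igtp, Ifi47, Rtp4, Irf9, Gbp7 and Parp14, which overlap another annotated gene on the same strand in the GENCODE vM21 annotation.

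The 35 genes did not share a single pattern over cell classes. Ifitm3, a membrane protein that blocks virus entry, was the most abundant, with 14043 UMIs in all. It averaged 4995 CPM in LEC-like cells of 1 library, 3203 ± 1171 CPM in vascular endothelial-like sums (SD, n = 3), 3052 ± 1227 CPM in LSEC-like sums (SD, n = 5) and 3050 ± 526 CPM in fibroblast-like sums (SD, n = 3). The vascular endothelial-like, LSEC-like and fibroblast-like values overlap within their spread. The single LEC-like value lies above the highest of them, 4298 CPM in an LSEC-like sum. All of these lie above the 795 ± 277 CPM of hepatocyte-like sums and the 90.4 ± 6.99 CPM of B-like sums (SD, n = 2 each). Bst2, also called tetherin, which holds budding virus at the cell surface, was ordered in a similar way at its upper end. It averaged 1442 ± 598 CPM in LSEC-like sums (SD, n = 5), 1106 ± 349 CPM in vascular endothelial-like sums (SD, n = 3) and 1036 CPM in LEC-like cells, which do not differ beyond their spread. Next came macrophage-like sums, at 787.5 ± 178 CPM (SD, n = 2). Lower in the order, Bst2 averaged 348 ± 146 CPM in fibroblast-like sums (SD, n = 3) and 109 ± 32.8 CPM in hepatocyte-like sums (SD, n = 2). The neutrophil-like sum held 0 Bst2 UMIs, but its limit of 3 counts is 158.5 CPM, so its place in the order is not known.

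**Figure D1:**
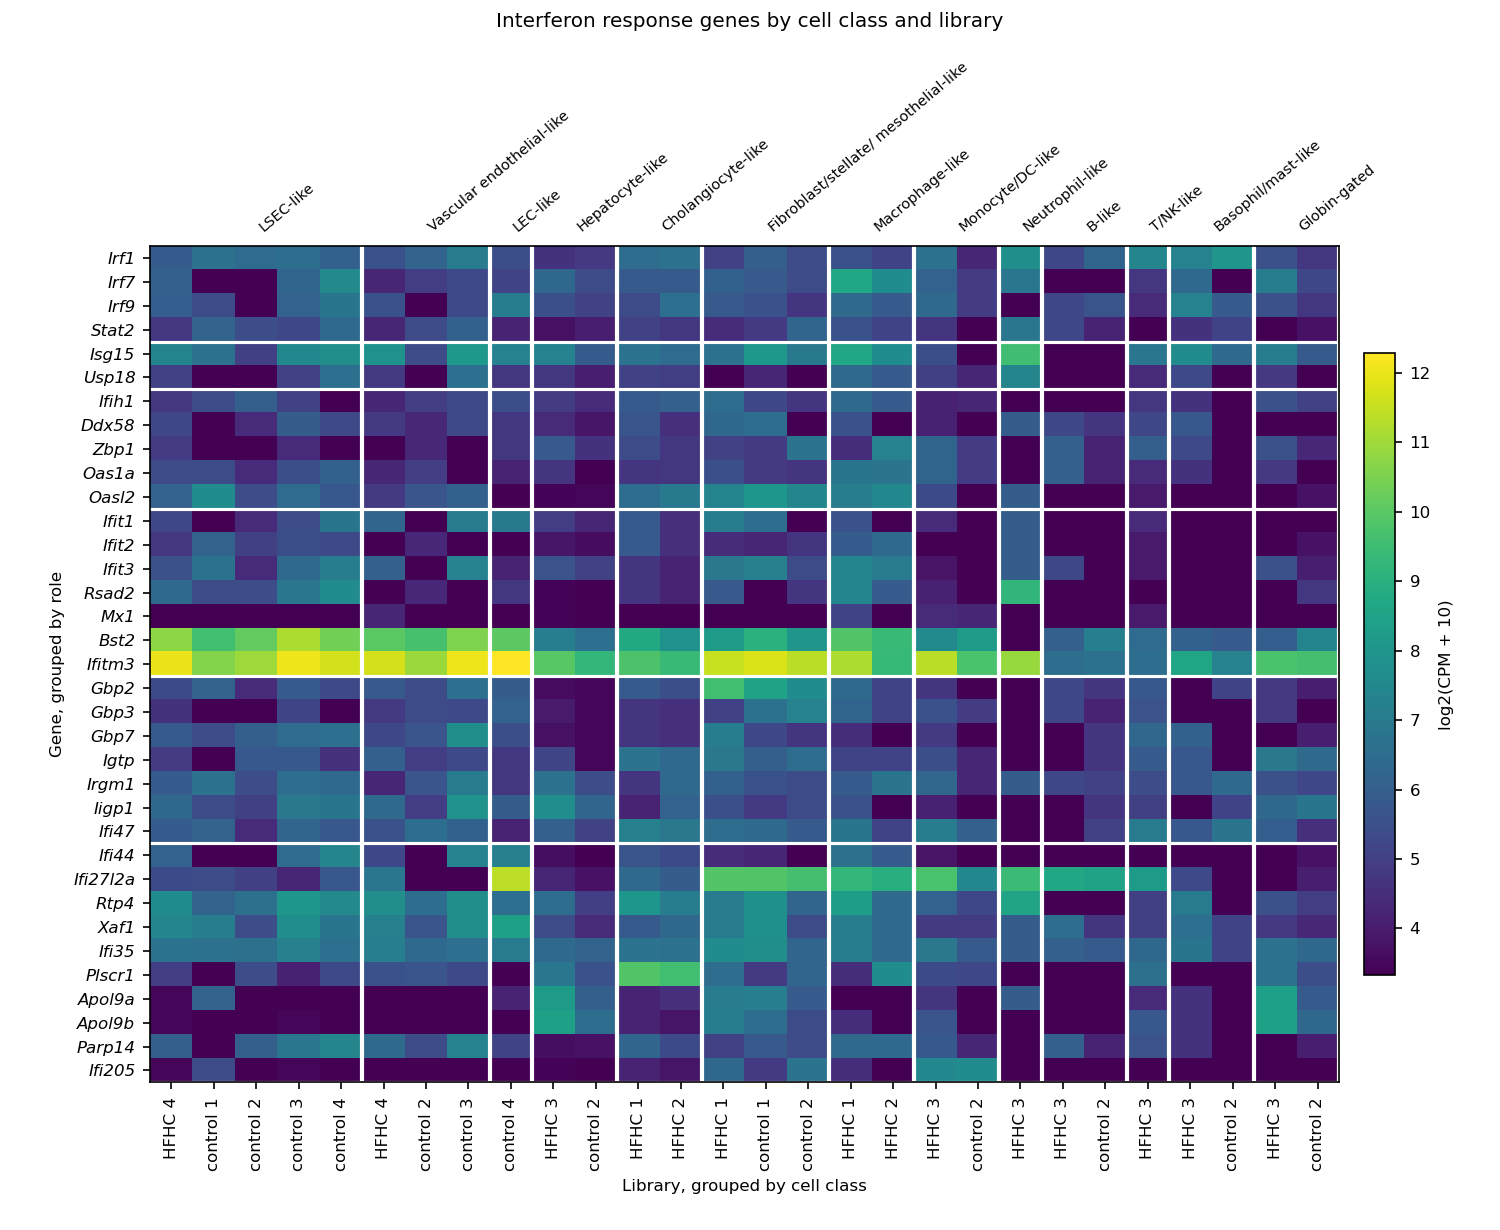
Level of 35 interferon response genes, as log2(CPM + 10), in 28 class sums (columns, 1 per library and class, HFHC columns left of control columns) with genes in rows by role. Ifitm3 and Bst2 are high across endothelial columns, whereas Plscr1 is highest in cholangiocyte-like columns and Ifi205 in monocyte or dendritic-like columns. Apol9a and Apol9b are highest in the hepatocyte-like and globin-gated columns of HFHC 3. In control 2 those columns lie below the highest fibroblast-like column for both genes.

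Ifi27l2a, a small hydrophobic protein of the ISG12 family, had 1324 UMIs and another order. It averaged 2689 CPM in LEC-like cells and 888 ± 77.7 CPM in fibroblast-like sums (SD, n = 3). The neutrophil-like sum had 687 CPM. Macrophage-like and monocyte or dendritic-like sums averaged 549.5 ± 83.8 and 501 ± 465 CPM (SD, n = 2 each). B-like sums averaged 374 ± 34.8 CPM (SD, n = 2), against 27.4 ± 12.8 CPM in LSEC-like sums (SD, n = 5) and 6.21 ± 3.90 CPM in hepatocyte-like sums (SD, n = 2). Plscr1, a phospholipid scramblase, averaged 827 ± 118 CPM in cholangiocyte-like sums, and the next class, macrophage-like, averaged 104 ± 130 CPM (SD, n = 2 each). These cholangiocyte-like values lie outside the range of every other class sum. Isg15, a ubiquitin-like modifier, was at 740 CPM in the neutrophil-like sum of HFHC 3, where 10 of its 14 UMIs came from 1 of 18 cells, and averaged 295 ± 139 CPM in macrophage-like sums (SD, n = 2). In the middle of its order, vascular, fibroblast-like, LEC-like and LSEC-like averages lay between 130 and 177 CPM and did not differ beyond their spread, and B-like sums were at 0 CPM. Ifi35, a leucine zipper protein, varied least among the abundant genes, between 52.3 ± 6.58 CPM in B-like sums (SD, n = 2) and 153.5 ± 76.9 CPM in fibroblast-like sums (SD, n = 3). Rtp4, a receptor chaperone, averaged 155 ± 77.5 CPM and Xaf1, a partner of the apoptosis inhibitor XIAP, averaged 125 ± 63.9 CPM in LSEC-like sums (SD, n = 5 each), against 51.6 ± 42.0 and 22.1 ± 15.0 CPM in hepatocyte-like sums (SD, n = 2 each). Mx1 had 10 UMIs in all; C57BL/6 mice are known to carry a defective Mx1.

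In LSEC-like cells, none of the 12 members that could be tested passed the threshold between diets. The comparison set HFHC 4, the single HFHC library with enough of these cells, against 4 control libraries, and assumed that it varies like the controls. Of 2597 genes tested, 0.385% were called higher and 0.116% lower at an adjusted p below 0.05 in edgeR's quasi-likelihood test with Benjamini-Hochberg adjustment over all genes, against 0 of 12 members in either direction. Leaving out each control library in turn also left 0 members called. The median log2 fold change was 0.03 over the 12 members and -0.04 over all genes tested. Without control 2 it was -0.26 over 30 members and 0.06 over all genes. Without control 3 it was 0.24 over 11 members and -0.11 over all genes.

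Ifitm3 had 4116 CPM in LSEC-like cells of HFHC 4, against 1572, 2002, 4298 and 3273 CPM in control 1 to 4. HFHC 4 lies inside the control range, below control 3. The fitted log2 fold change was 0.71 with a standard error of 0.39 and an adjusted p of 0.913 in edgeR's quasi-likelihood test with Benjamini-Hochberg adjustment. Bst2 had 1711 CPM in HFHC 4, against 754, 1107, 2314 and 1324 CPM in control 1 to 4. Isg15 had 155.5 CPM in HFHC 4, against 94.3, 22.4, 173 and 204 CPM in control 1 to 4. Both genes again fall between the lowest and the highest control. Rtp4 had 197 CPM in HFHC 4, against 62.9, 89.5, 250.5 and 174.5 CPM in control 1 to 4. Xaf1 had 162 CPM in HFHC 4, against 126, 33.6, 203 and 102 CPM in control 1 to 4. The order is the same for these genes, with control 3 above HFHC 4 and control 2 below it. Ifi35 had 97.3 CPM in HFHC 4, against 94.3, 89.5, 141.3 and 87.3 CPM in control 1 to 4. Ifi27l2a had 30.7 CPM in HFHC 4, against 31.4, 22.4, 8.99 and 43.6 CPM in control 1 to 4. Plscr1 had 21.2 CPM in HFHC 4, against 0, 33.6, 7.71 and 29.1 CPM in control 1 to 4. For these genes too the single HFHC value overlaps the control range.

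**Figure D2:**
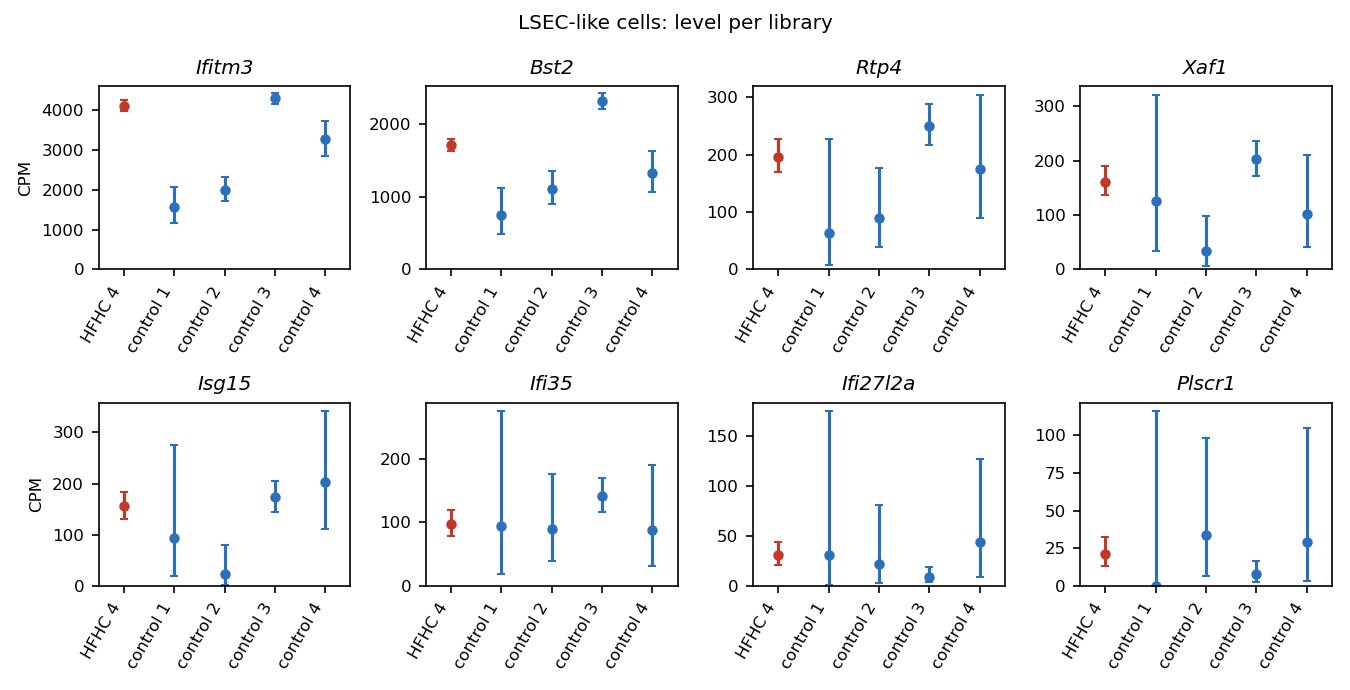
CPM of the 8 most abundant members in LSEC-like cells of HFHC 4 and of control 1 to 4, with exact Poisson 95% intervals that cover counting error only. In each panel HFHC 4 lies within the range of the control libraries, and control 2 is lowest for Isg15 and Xaf1.

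The deepest pair of LSEC-like sums, HFHC 4 and control 3, allowed 31 members with at least 10 UMIs in the pair to be compared, with no test since each is 1 library. By ratio of CPM, 2 members were at least 2-fold higher in HFHC 4 and 3 at least 2-fold lower, where 5.08% and 7.43% of 9054 genes were. Ifi27l2a stood at a ratio of 3.41 (exact 95% interval 1.46 to 9.22) and Plscr1 at 2.75 (1.06 to 8.35). The GTPase gene Igtp stood at 0.447, and Ifit2 and Ifit3, which bind viral RNA, at 0.488 each. The median log2 ratio was -0.44 over these members and -0.13 over all genes, and 4 of 31 members were above 0 (12.9%, against 39.9% of all genes). Bst2 had a ratio of 0.739 (0.691 to 0.791), Ifitm3 0.958 (0.914 to 1.00) and Isg15 0.897 (0.705 to 1.14). Set against control 2 instead, HFHC 4 had 13 members at least 2-fold higher and 3 lower, where 12.6% and 17.7% of genes were, with a median log2 ratio of 0.90. Against control 1 the counts were 6 higher and 8 lower (13.3% and 26.1% of genes), and against control 4 they were 3 and 10 (18.5% and 23.1% of genes). The direction of the median thus differed by which control library was taken.

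Single cells carried much of the signal in the small sums. In control 4, 1 of 33 LSEC-like cells held 57 of the 164 UMIs of members other than Ifitm3 and Bst2, with 19 members detected in it. Rsad2, or viperin, had 74.0 CPM in HFHC 4 and 189 CPM in control 4, where 10 of its 13 UMIs came from 1 cell. Within LSEC-like cells of HFHC 4, Rtp4 was detected in 41.4% of 99 cells with an Isg15 UMI and in 19.8% of 449 cells without one. In control 3 the shares were 47.2% of 72 and 22.5% of 471 cells. Depth per cell was not matched between the cells compared, and these shares are a description.

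Vascular endothelial-like and fibroblast-like sums also gave no member past the threshold between diets. In vascular endothelial-like cells, 0 of 8 members were called, where 0.227% of 2201 genes were called higher and 0.454% lower by edgeR. Isg15 had 236 CPM in HFHC 4, with 13 of its 25 UMIs in 1 cell, against 31.3 CPM in control 2 and 263.5 CPM in control 3. Ifitm3 had 3381 CPM in HFHC 4, against 1953 and 4274 CPM in control 2 and control 3. The HFHC value lies between the controls in both cases. The upper control is control 3 each time, whose sum held more LSEC than vascular marker UMIs, against its label. By ratio, 6 members of 11 were at least 2-fold higher in HFHC 4 than in control 2 and 1 lower (10.6% and 11.1% of genes), while against control 3 the counts were 1 and 4 of 12 (15.0% and 13.0% of genes). In fibroblast-like cells, 0 of 15 members were called, where 0.267% of 1876 genes were called higher and 0.48% lower. Gbp2, a guanylate-binding GTPase, had the smallest p there, with 745 CPM in HFHC 1, against 347 and 196 CPM in control 1 and control 2, and a log2 fold change of 1.34 with a standard error of 0.62. Its adjusted p was 0.9999 in edgeR's quasi-likelihood test with Benjamini-Hochberg adjustment. By ratio, HFHC 1 had 3 members at least 2-fold higher and 2 lower of 20 against control 1 (11.1% and 12.7% of genes), and 8 higher and 1 lower of 19 against control 2 (16.2% and 12.4% of genes).

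Summing all cells of a library, 0 of 34 members and 0.0% of 6666 genes were called between diets by edgeR, and 54 genes had an unadjusted p below 0.05. DESeq2 also called 0 genes, with 126 at an unadjusted p below 0.05. In such sums fewer cells of a type and less RNA per cell cannot be told apart. The median log2 fold change was 0.08 over the members and 0.06 over all genes, but its sign turned with the libraries used: it was -0.26 over the members without control 2, -0.22 without HFHC 1 and -0.10 without HFHC 3. The member with an unadjusted p below 0.05 was Plscr1, at 398, 583, 87.5 and 22.2 CPM in HFHC 1 to 4, against 23.5, 35.5, 14.4 and 15.5 CPM in control 1 to 4. Its values in HFHC 1 to 3 lie above all 4 controls and that of HFHC 4 lies within their range, and its adjusted p was 0.9995 in edgeR's quasi-likelihood test with Benjamini-Hochberg adjustment. Cholangiocyte-like cells, where Plscr1 was most abundant, made up 31.9% of HFHC 1 and 55.4% of HFHC 2; the part of that share in the result was not tested.

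In hepatocyte-like barcodes most of the members compared stood higher in the HFHC library. HFHC 3, with 639 barcodes and 1562006 UMIs, was set against control 2, with 575 barcodes and 870205 UMIs, and with 1 library a diet there is no test. Of 26 members with at least 10 UMIs in the pair, 18 were at least 2-fold higher by CPM in HFHC 3 and 1 was at least 2-fold lower, where 10.1% and 5.42% of 7672 genes were. The median log2 ratio was 1.23 over these members and 0.18 over all genes. Above 0 were 24 of 26, as were 63.2% of all genes. The limit of 10 UMIs was on both libraries together, for members and all genes alike. Among the 18, Usp18, Ddx58, Oas1a, Ifit1, Gbp3, Igtp and Ifi27l2a had fewer than 10 UMIs in control 2. Those genes entered the count mainly through HFHC 3, the deeper library.

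Among transcription factors, Irf7, which drives type I interferon production, had 110 UMIs (70.4 CPM) in HFHC 3 and 27 UMIs (31.0 CPM) in control 2, a ratio of 2.27 (exact 95% interval 1.48 to 3.60). Irf9 had a ratio of 1.56 (0.922 to 2.74), whose interval spans 1. Irf1, which interferon gamma induces, had 23 and 16 UMIs and a ratio of 0.801. Stat2 had 5 and 6 UMIs and was the member more than 2-fold lower. Isg15 had 232 UMIs (148.5 CPM) in HFHC 3 and 44 UMIs (50.6 CPM) in control 2, a ratio of 2.94 (2.12 to 4.15). Its UMIs came from 140 of the HFHC 3 barcodes and 28 of the control 2 barcodes. Usp18, the protease that removes ISG15, had 27 and 6 UMIs. Of the sensors, Zbp1, which recognises Z-form nucleic acid, had a ratio of 3.13 (1.72 to 6.15). The oligoadenylate synthetase gene Oas1a had 24 UMIs in HFHC 3 and 0 in control 2, whose limit of 3 counts is 3.45 CPM.

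Ratios were smaller for the abundant antiviral effectors. Ifitm3 had 1548 UMIs (991 CPM) in HFHC 3 and 522 UMIs (600 CPM) in control 2, a ratio of 1.65 (1.5 to 1.83), and Bst2 had a ratio of 1.54 (1.18 to 2.03). Ifit3 had 61 and 20 UMIs, of which 44 and 18 lay in 1 barcode each, so the ratio of 1.70 rests on single barcodes. Ifit1, likewise, had 24 of its 33 UMIs in HFHC 3 in 1 barcode. The GTPases showed larger ratios. Iigp1, which attacks pathogen vacuoles, had 313 UMIs (200.4 CPM) in HFHC 3 and 58 UMIs (66.7 CPM) in control 2, a ratio of 3.01 (2.27 to 4.05). Irgm1, a regulator of such GTPases, had a ratio of 2.86 (1.91 to 4.42) and Ifi47 a ratio of 2.39. Igtp had 41 UMIs in HFHC 3 and 1 in control 2, a ratio of 22.8 whose interval runs between 3.88 and 924.

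The apolipoprotein L genes Apol9a and Apol9b, whose promoter windows are identical, followed Ifitm3 in UMI count in HFHC 3. Apol9a had 444 UMIs (284 CPM) in HFHC 3 and 49 UMIs (56.3 CPM) in control 2, a ratio of 5.05 (3.75 to 6.93), from 273 and 44 barcodes. Apol9b had 516 UMIs (330.3 CPM) in HFHC 3 and 74 UMIs (85.04 CPM) in control 2, a ratio of 3.89 (3.04 to 5.03), from 287 and 60 barcodes. Because these 2 genes are near-identical, reads may have been split between them. Rtp4 had a ratio of 3.72 (2.29 to 6.39), Plscr1 of 2.79 (1.91 to 4.18), Xaf1 of 2.84 and Ifi35 of 1.20 (0.859 to 1.69). The intervals cover counting error in these 2 libraries and no spread between mice.

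**Figure D3:**
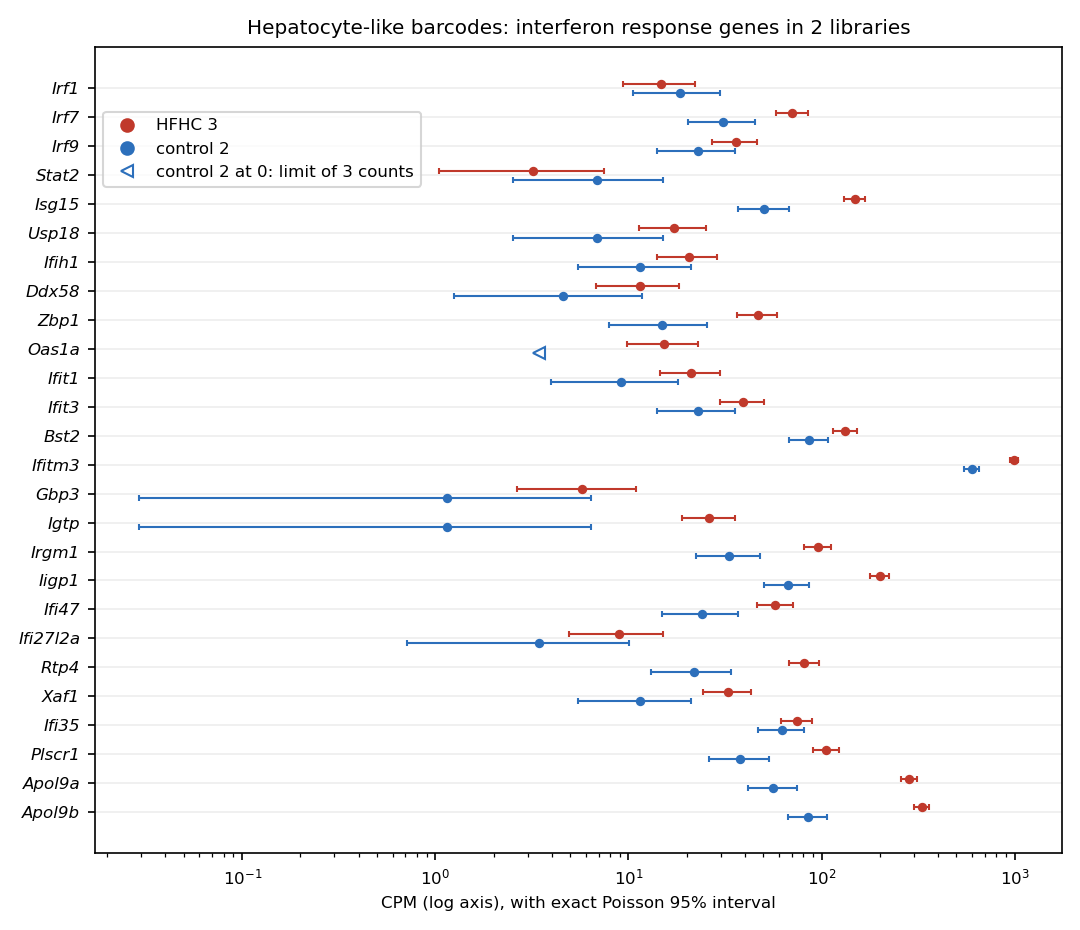
CPM on a log axis of 26 members in hepatocyte-like barcodes of HFHC 3 (red) and control 2 (blue), with exact Poisson 95% intervals; the open triangle marks the limit of 3 counts for Oas1a in control 2, which had 0 UMIs. For 24 of the 26 genes the HFHC 3 point lies to the right of the control 2 point. The points of Igtp, Apol9a and Apol9b are far apart and those of Ifi35 close.

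The hepatocyte-like ratios were recomputed without the barcode richest in member UMIs in each library. That barcode held 156 of 2756 member UMIs in HFHC 3 (Ifitm3 and Bst2 aside) and 47 of 534 in control 2. Without it the ratio was 3.09 for Isg15, 5.09 for Apol9a, 3.99 for Apol9b, 2.94 for Iigp1 and 22.3 for Igtp, each close to its full value. Ifit3 moved to 4.74 and Ifit1 to 1.68. With each barcode found in more than 1 library removed instead, 18 of 26 members were again at least 2-fold higher in HFHC 3 and 1 lower, and the ratio was 3.08 for Isg15, 5.05 for Apol9a, 3.92 for Apol9b and 3.07 for Iigp1. The libraries also differed in quality measures: the median share of mitochondrial UMIs in these barcodes was 0.0364% in HFHC 3 and 5.16% in control 2, and the median depth was 1920 and 1027 UMIs. The part of these differences in the result was not tested.

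After thinning each barcode to 1000 UMIs, 37.3% of hepatocyte-like barcodes of HFHC 3 (202 of 542; exact binomial 95% interval 33.2 to 41.5) and 6.12% of those of control 2 (18 of 294; 3.67 to 9.50) held at least 3 members, leaving out 97 and 281 shallower barcodes. Unthinned, the shares were 65.3% and 15.0%. B-like cells of control 2, which held 0 UMIs of Isg15, Irf7, Rtp4, Plscr1, Apol9a and Apol9b, gave 2.44% (1 of 41; 0.0617 to 12.9), at a median of 1995 UMIs against 1762 UMIs in the hepatocyte-like barcodes of control 2 that were used. These shares are of cells of single libraries, and their intervals cover counting error alone. In LSEC-like cells the share was 62.0% in HFHC 4 (57.0 to 66.8), against 43.6% (27.8 to 60.4) in control 2, 70.1% (65.2 to 74.7) in control 3 and 64.3% (44.1 to 81.4) in control 4. The share in HFHC 4 minus that in control 3 was -8.11 percentage points, with an interval of -14.9 to -1.27; unthinned it was -3.97 (-9.33 to 1.42), and the interval then spans 0. LEC-like cells of control 4 were at 65.6% (46.8 to 81.4), beside the LSEC-like cells of the same library.

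Other classes held in both HFHC 3 and control 2 gave the following counts, with the same limit of at least 10 UMIs over both libraries. In monocyte or dendritic-like cells, 13 of 18 members were at least 2-fold higher in HFHC 3 and 0 lower, where 13.6% and 7.78% of 4419 genes were. Ifi27l2a had 218 UMIs in HFHC 3 and 18 in control 2, a ratio of 4.82 (2.98 to 8.29), and Ifitm3 a ratio of 3.15 (2.52 to 3.97). Bst2 ran the other way at 0.604 (0.376 to 0.983), and Ifi205, a DNA-binding PYHIN protein, had a ratio of 0.896. Without barcodes found in more than 1 library, 12 of 16 members were at least 2-fold higher and 1 lower, with Bst2 at 0.453. In basophil or mast-like cells 3 of 4 members were higher and 0 lower (11.8% and 9.32% of genes), in B-like cells 0 of 3 in either direction (13.9% of genes in each direction), and in the globin-gated sum 5 of 11 higher and 1 lower (15.2% and 16.3% of genes). Hepatocyte markers reached 2634 CPM in the monocyte or dendritic-like sum of HFHC 3 and 898 CPM in that of control 2; their part in these counts was not tested.

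Control 2 had the lowest summed level of the members, Ifitm3 and Bst2 aside, in 8 of the 8 classes it shared with another library. Only LSEC-like, vascular endothelial-like and fibroblast-like sums held another control library. In the remaining classes the single other library was HFHC 3, so the rank there restates the comparison of those 2 libraries. In LSEC-like cells the sum was 1584 CPM in HFHC 4, against 1415, 828, 2141 and 2385 CPM in control 1 to 4. In hepatocyte-like barcodes it was 1764 CPM in HFHC 3 and 614 CPM in control 2. In fibroblast-like cells it was 3889 CPM in HFHC 1, against 3588 CPM in control 1 and 2415 CPM in control 2. Control 2 was also lowest in 8 of 8 classes without the richest cell of each sum. Control 2 also had the highest median mitochondrial share in 8 of 8 classes, such as 8.96% in LSEC-like cells, against at most 4.24% elsewhere. Each diet comparison in hepatocyte-like, monocyte or dendritic-like, B-like, basophil or mast-like and globin-gated sums has control 2 as its single control library, so the diet and that library cannot be told apart there.

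**Figure D4:**
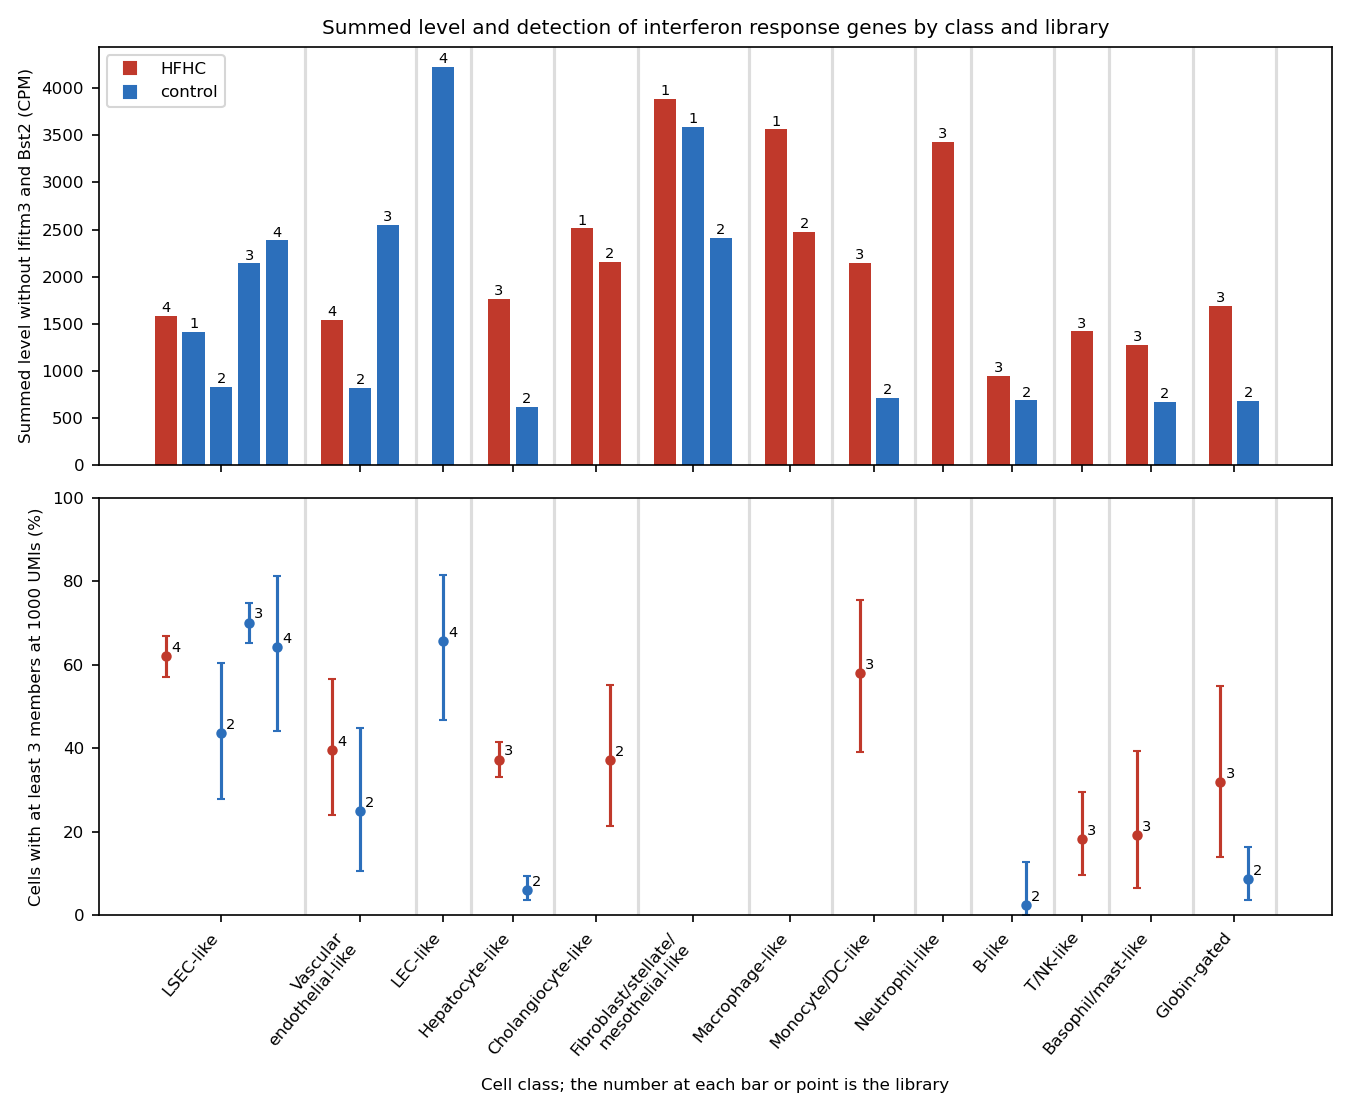
Upper panel, bars of summed CPM of the members without Ifitm3 and Bst2 in each class and library, HFHC left of control; lower panel, percent of cells with at least 3 members after thinning to 1000 UMIs, with exact binomial 95% intervals. Control 2 bars are the lowest of each class shared with another library, and the hepatocyte-like points stand apart at 37.3% in HFHC 3 and 6.12% in control 2.

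Differences between cell classes were tested next, by setting each class sum against the sum of all other gated cells of the same library, with library as a block. The comparisons share cells, and the rest of HFHC 3 and control 2 is mostly hepatocyte-like for every other class, so they are not independent. Members called higher and lower, at an adjusted p below 0.05 in edgeR's quasi-likelihood test, were counted against the genes called. LSEC-like cells had 1 higher and 0 lower of 6 members tested, where 7.11% and 3.3% of 1968 genes were called. Hepatocyte-like barcodes had 7 higher and 10 lower of 31, where 26.8% and 33.1% of 7452 genes were called, so the members were near the background. Cholangiocyte-like cells had 1 and 7 of 17 (8.07% and 13.3% of 2764 genes), and macrophage-like cells 5 and 1 of 17 (10.6% and 6.51% of 2687 genes). The 5 higher became 2 with DESeq2, with no filter on low counts, without doublets, without the richest cell of each sum and with at least 5 cells a sum. Fibroblast-like cells had 2 and 0 of 8 (3.15% and 0.91% of 1429 genes), and vascular endothelial-like cells 0 and 0 of 26 (0.505% and 0.162% of 5544 genes). Monocyte or dendritic-like cells had 2 and 5 of 30 (11.9% and 18.9% of 7439 genes). B-like cells had 1 and 8 of 28 (7.22% and 13.5% of 7039 genes), and basophil or mast-like cells 1 and 7 of 28 (7.37% and 14.6% of 7120 genes). The globin-gated sum had 1 and 2 of 26 (1.4% and 4.05% of 6916 genes). The median log2 fold change over members was 0.70 in macrophage-like cells, where that of all genes was -0.08, and -0.92 in cholangiocyte-like cells, where it was 0.01.

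**Figure D5:**
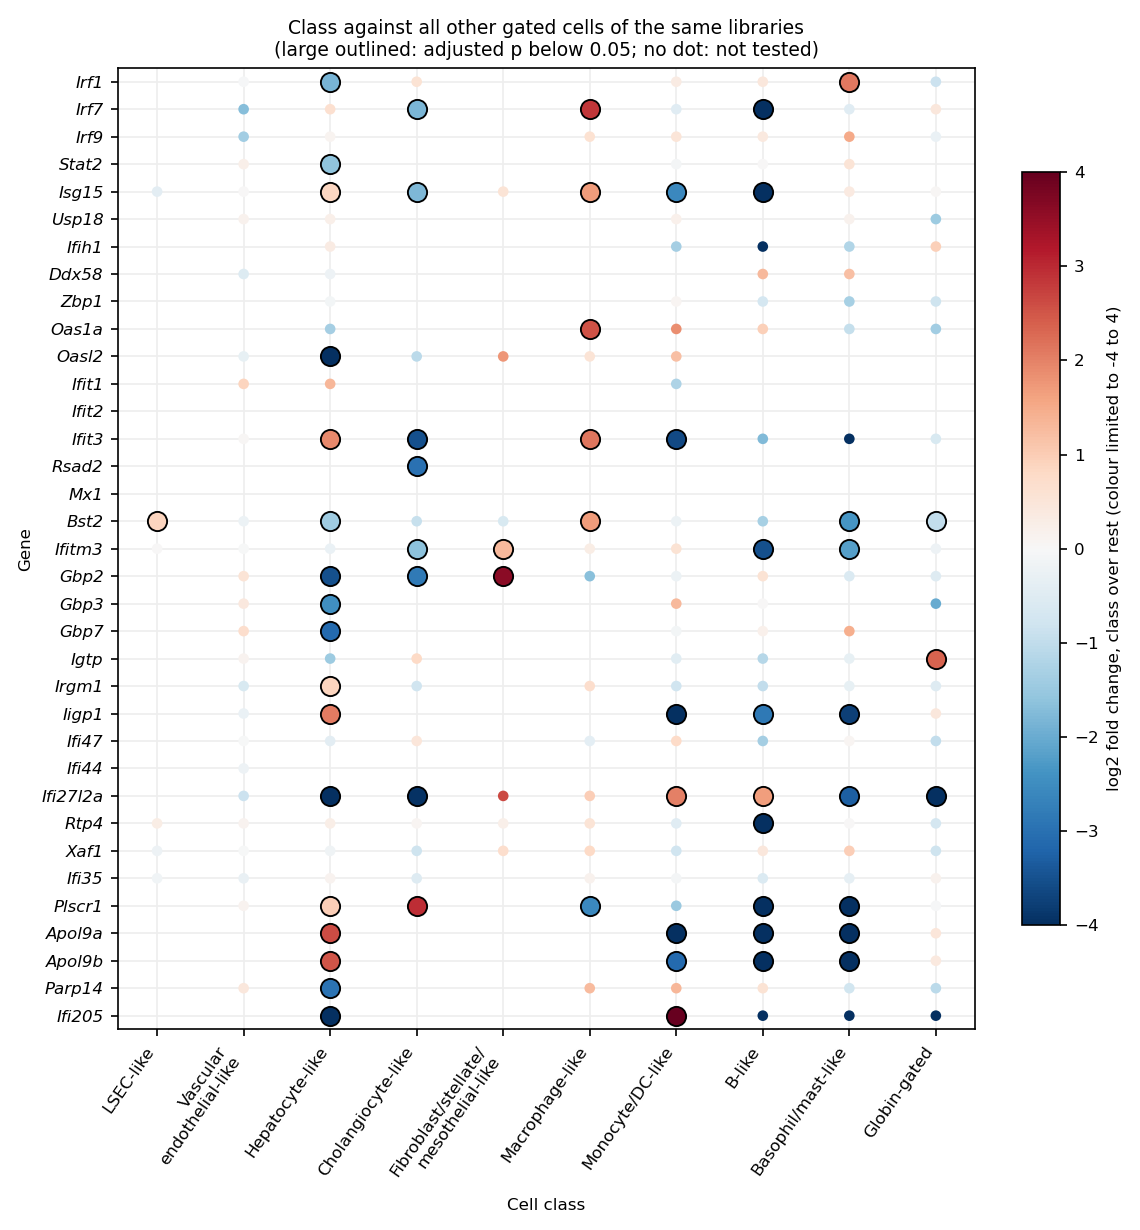
Log2 fold change of each member in each class over the other gated cells of the same libraries, coloured between -4 and 4; large outlined dots have an adjusted p below 0.05, and no dot means that the gene was not tested. Outlined dots for Apol9a and Apol9b are positive in hepatocyte-like barcodes and negative in monocyte or dendritic-like, B-like and basophil or mast-like cells, and Plscr1 is positive in cholangiocyte-like cells.

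The transcription factors differed in where they were high. Irf7 was higher in macrophage-like cells, at 393 and 196 CPM in HFHC 1 and HFHC 2, against 49.0 and 47.0 CPM in the rest, a log2 fold change of 2.87 with a standard error of 0.51 and an adjusted p of 0.00263 by edgeR. Of its 31 UMIs in HFHC 1, 16 came from 1 cell. It was lower in cholangiocyte-like cells by edgeR (log2 fold change -1.84, adjusted p = 0.0108). Irf1 was higher in basophil or mast-like cells by edgeR, at 147 and 247.5 CPM in HFHC 3 and control 2, against 39.4 and 29.5 CPM in the rest (log2 fold change 2.09, adjusted p = 0.00455), with an adjusted p of 0.0927 by DESeq2. Irf1 and Stat2 were lower in hepatocyte-like barcodes, with log2 fold changes of -1.87 and -1.60. Irf9 passed in none of the class comparisons in which it was tested.

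Isg15 was higher in macrophage-like cells, at 393 and 196 CPM in HFHC 1 and HFHC 2, against 93.5 and 134 CPM in the rest (log2 fold change 1.70, edgeR adjusted p = 0.0364). That call was lost in 5 of 9 other settings, with an adjusted p of up to 0.394. It was also higher in hepatocyte-like barcodes, at 148.5 CPM in HFHC 3 and 50.6 CPM in control 2, against 100.3 and 34.5 CPM in the rest (log2 fold change 0.87, edgeR adjusted p = 0.0209), though with DESeq2 the adjusted p was 0.187. It was lower in cholangiocyte-like cells (log2 fold change -1.80) and in monocyte or dendritic-like cells (-2.58). Both B-like sums held 0 Isg15 UMIs, at least 3.5-fold lower than the rest of the same libraries at a limit of 3 counts over the group. Of the sensors, Oas1a was higher in macrophage-like cells, at 102 and 98.1 CPM in HFHC 1 and HFHC 2, against 22.3 and 18.1 CPM in the rest (log2 fold change 2.54, edgeR adjusted p = 0.0249), a call lost in 3 of 8 other settings. Oasl2, an oligoadenylate synthetase-like protein, was lower in hepatocyte-like barcodes (log2 fold change -4.21).

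Among the antiviral effectors, Bst2 was higher in macrophage-like cells, at 913 and 662 CPM in HFHC 1 and HFHC 2, against 343 and 246 CPM in the rest (log2 fold change 1.70, edgeR adjusted p = 0.00343), a call lost in 2 of 9 other settings. It was also higher in LSEC-like cells (log2 fold change 0.90, edgeR adjusted p = 0.0379), at 1711 CPM in HFHC 4 and 754, 1107, 2314 and 1324 CPM in control 1 to 4, against 1018 CPM and 505, 215, 1111 and 749 CPM in the rest. The class value exceeded the rest in 5 of 5 libraries, but the adjusted p ranged between 0.0233 and 0.162 over 16 other settings and missed the threshold in 9 of them, among them each fit that left out 1 library. Bst2 was lower in hepatocyte-like barcodes (log2 fold change -1.42), basophil or mast-like cells (-2.34) and the globin-gated sum (-0.99).

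Ifitm3 was higher in fibroblast-like cells, at 2931 CPM in HFHC 1 and 3625 and 2594 CPM in control 1 and control 2, against 1357, 1240 and 745 CPM in the rest (log2 fold change 1.30, edgeR adjusted p = 0.0365). The adjusted p was 0.144 without HFHC 1 and 0.316 without control 1. Ifitm3 was lower in B-like cells, at 85.5 and 95.3 CPM in HFHC 3 and control 2, against 1112 and 864 CPM in the rest, and in cholangiocyte-like cells, at 878 and 644 CPM in HFHC 1 and HFHC 2, against 2421 and 1737 CPM in the rest. Ifit3 was higher in macrophage-like cells (log2 fold change 2.15, a call lost in 3 of 6 other settings) and in hepatocyte-like barcodes (1.93), where single barcodes held most of its UMIs, and lower in cholangiocyte-like (-3.52) and monocyte or dendritic-like cells (-3.60). Rsad2 was lower in cholangiocyte-like cells (log2 fold change -2.98, edgeR adjusted p = 0.0269).

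The guanylate-binding and immunity-related GTPases split between classes. Gbp2 was higher in fibroblast-like cells, at 745 CPM in HFHC 1 and 347 and 196 CPM in control 1 and control 2, against 68.5, 47.1 and 6.44 CPM in the rest (log2 fold change 3.60, edgeR adjusted p = 0.0287), and its adjusted p was 0.129 without HFHC 1 and 0.308 without control 1. It was lower in cholangiocyte-like cells (log2 fold change -2.83). In hepatocyte-like barcodes Gbp2, Gbp7 and Gbp3 were lower, with log2 fold changes of -3.52, -3.12 and -2.45. In the same barcodes Iigp1 was higher, at 200.4 and 66.7 CPM in HFHC 3 and control 2, against 24.4 and 44.5 CPM in the rest (log2 fold change 2.09, edgeR adjusted p = 0.0208), as was Irgm1 (0.89, adjusted p = 0.0355). Without the richest cell of each sum the adjusted p of Iigp1 was 0.111. Igtp was higher in the globin-gated sum (log2 fold change 2.34), where 9 of its 22 UMIs in control 2 came from 1 cell.

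Among the other induced genes, Apol9a was higher in hepatocyte-like barcodes by edgeR, at 284 and 56.3 CPM in HFHC 3 and control 2, against 40.7 and 18.9 CPM in the rest (log2 fold change 2.60 with a standard error of 0.35, adjusted p = 6.46e-05). Apol9b was higher too, at 330.3 and 85.04 CPM, against 57.0 and 24.5 CPM in the rest (log2 fold change 2.53 with a standard error of 0.31, adjusted p = 3.38e-05). Both were lower in monocyte or dendritic-like, B-like and basophil or mast-like cells, whose rest is mostly hepatocyte-like. Plscr1 was higher in cholangiocyte-like cells by edgeR, at 911 and 744 CPM in HFHC 1 and HFHC 2, against 49.9 and 160.0 CPM in the rest (log2 fold change 2.96 with a standard error of 0.43, adjusted p = 0.000316). The same libraries gave lower Plscr1 in macrophage-like cells (log2 fold change -2.59), whose rest contains the cholangiocyte-like cells.

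Ifi205 was higher in monocyte or dendritic-like cells by edgeR, at 171 and 191 CPM in HFHC 3 and control 2, against 2.46 and 3.60 CPM in the rest (log2 fold change 5.59 with a standard error of 0.52, adjusted p = 3.91e-06). Ifi27l2a was higher in B-like cells, at 399 and 349.5 CPM in HFHC 3 and control 2, against 180 and 62.0 CPM in the rest (log2 fold change 1.67, edgeR adjusted p = 0.0107), with an adjusted p of 0.112 by DESeq2. It was also higher in monocyte or dendritic-like cells (log2 fold change 2.03, edgeR adjusted p = 0.0358), with an adjusted p of 0.207 without the richest cell of each sum. It was lower in hepatocyte-like barcodes, at 8.96 and 3.45 CPM in HFHC 3 and control 2, against 552 and 159 CPM in the rest, and lower in cholangiocyte-like cells, at 73.2 and 52.2 CPM in HFHC 1 and HFHC 2, against 753 and 891.5 CPM in the rest. Parp14, an ADP-ribosyltransferase, was lower in hepatocyte-like barcodes (log2 fold change -2.96).

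LEC-like cells were compared with LSEC-like cells of control 4, the single library with enough of both, so there is no test. Of 16 members with at least 10 UMIs in the pair, 2 were at least 2-fold higher in LEC-like cells and 5 at least 2-fold lower, where 23.3% and 22.5% of 3223 genes were. Ifi27l2a had 309 UMIs (2689 CPM) in LEC-like cells, in 26 of 35 of them, and 3 UMIs (43.6 CPM) in LSEC-like cells, a ratio of 61.6 (exact 95% interval 20.9 to 300). Xaf1 had 331 CPM in LEC-like and 102 CPM in LSEC-like cells, a ratio of 3.25 (1.43 to 8.62), and Ifitm3 4995 and 3273 CPM, a ratio of 1.53 (1.31 to 1.79). Rsad2, Ifit3, Irf7 and Parp14 had ratios of 0.092, 0.0665, 0.150 and 0.163, against LSEC-like cells in which 1 of 33 held 57 of 164 member UMIs.

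Other genes of the pathway were counted in 3 lists: 25 receptor and signalling genes, 40 further induced genes and 12 ligands. Between diets, 0 of 7 receptor and signalling genes and 0 of 16 further induced genes were called in LSEC-like cells by edgeR, and 0 of 20 and 0 of 28 in all cells. Cxcl9, a chemokine that interferon gamma induces, had the smallest p in LSEC-like cells, at 296 CPM in HFHC 4, against 346, 78.3, 140.0 and 87.3 CPM in control 1 to 4 (log2 fold change 1.23 with a standard error of 0.51, adjusted p = 0.398). The HFHC value is below that of control 1.

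Between classes, 5 of 19 receptor and signalling genes were higher and 0 lower in monocyte or dendritic-like cells, where 11.9% and 18.9% of all genes were, among them Irf8 (log2 fold change 2.57) and Ifngr1 (2.68), which encode a myeloid transcription factor and a chain of the interferon gamma receptor. In hepatocyte-like barcodes 1 of 19 was higher and 13 lower, where 26.8% and 33.1% of all genes were, among them Ifngr1 (-5.02) and Ifnar2 (-2.42), a chain of the type I receptor. In LSEC-like cells 1 of 4 was higher, where 7.11% of all genes were, namely the kinase gene Jak1 (log2 fold change 2.00, edgeR adjusted p = 0.000861). Of the further induced genes, 4 of 9 were higher in LSEC-like cells and 1 lower (7.11% and 3.3% of all genes), with Cxcl9 at a log2 fold change of 3.48 and Ly6e, which encodes a lipid-anchored membrane protein, at -1.21. In macrophage-like cells 4 of 13 were higher and 0 lower (10.6% and 6.51% of all genes), with the chemokine gene Cxcl10 at 165 and 1054 CPM in HFHC 1 and HFHC 2.

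Of the 12 ligand genes, 6 had a UMI in the cells kept. Ifng had 50 UMIs, of which 48 came from 22 of 67 T or NK-like cells of HFHC 3 (268 CPM). Ifnb1 had 13 UMIs, of which 6 lay in 1 macrophage-like cell of HFHC 2. Ifna2 had 3 UMIs, and Ifna1, Ifna4, Ifna5, Ifne, Ifnl2 and Ifnl3 had 0 in 3192 cells. Control 2 had 9 T or NK-like cells, too few for a class sum.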

How the data were processed

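Counts were deposited by the authors as 1 matrix of UMI counts per gene and cell. Per the submitters' processing notes, Cell Ranger 3.0.1 and Seurat were used with mm10; no source used here gives the Seurat version. Cells in the matrix had at least 202 genes and at most 10% mitochondrial UMIs, as tested on the matrix. Of 3416 cells, 224 were removed as barcodes with more UMIs in another library. A cell took the class with the highest mean scaled marker level if at least 2 of its markers had a UMI; 47 cells stayed unassigned. Raw UMIs were summed per library and class (at least 10 cells). CPM is per 1000000 UMIs of the sum. Tests were edgeR 4.0.16's quasi-likelihood test (R 4.3.3, TMM scaling, filterByExpr, robust) over all genes with Benjamini-Hochberg adjustment at 0.05. Alternatives were DESeq2 1.42.0, other filters and gates, doublet removal (scanpy 1.11.5 marked 61 doublets, which were kept otherwise), removal of shared barcodes and leaving out libraries. The fits were tested on simulated data. With 1 library a group, ratios have exact conditional intervals, levels exact Poisson intervals and shares Clopper-Pearson intervals, all at 95%; log2 ratios of such pairs used a pseudocount of 0.5. Classes of 2 libraries leave 1 residual degree of freedom per gene before the spread is shared over genes.

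Any of the 36 members could be named; per-library values are given for members called in a comparison and for the 8 with the highest mean CPM over class sums, and at most 6 genes per further list and comparison were named, by smallest p. The members and lists were chosen with earlier results of these data known. Labels do not say that equal replicate numbers share an animal, litter or day. Libraries are labelled as separate animals. Positions are from GENCODE vM21 on GRCm38, and promoters from RefSeq on GRCm38.p6, where 28 of 36 members matched.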

Additional observations from a re-analysis of the deposited data

Results flagged for a closer look

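Ifi35 in LSEC-like cells stood out in control 3, at 141.3 CPM, where the other controls lay between 87.3 and 94.3 CPM. Xaf1 summed over all cells stood out in control 2, at 16.3 CPM, where the other controls lay between 176 and 202 CPM. In both cases the gap to the nearest control, divided by the range of the 4, exceeded Dixon's critical value at 95%. Such gaps were looked for in 27 groups of 4 libraries, and chance gives about 1 in 20 groups. Control 2 holds 575 hepatocyte-like barcodes of 875 cells, and hepatocyte-like sums averaged 22.1 CPM of Xaf1; the part of that mix was not tested.

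Isg15 ran in opposite directions in 2 classes. It was at 148.5 CPM in HFHC 3 and 50.6 CPM in control 2 in hepatocyte-like barcodes, and at 94.6 CPM in HFHC 1, against a control mean of 188 CPM, in fibroblast-like cells, where 22 of 28 UMIs of control 1 came from 1 cell. Bst2 likewise was at 132.5 CPM in HFHC 3 and 86.2 CPM in control 2 in hepatocyte-like barcodes, and at 179 CPM in HFHC 3 and 296 CPM in control 2 in monocyte or dendritic-like cells. These differences between classes were not tested.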

How the results depend on the processing

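The count of members called between diets was 0 in each setting run for all cells, LSEC-like, vascular endothelial-like and fibroblast-like sums, and no result changed direction past the threshold. With the replicate block in the fit of all cells, 0 genes were called and 110 had an unadjusted p below 0.05. Libraries of equal number correlated at 0.498, -0.0809, -0.416 and 0.162 in sums over all cells. HFHC 3 and control 2, both mostly hepatocyte-like, correlated at 0.830. Such sums move with the cells a library holds, so these values cannot tell whether equal numbers share a litter or day. No paired analysis was possible in class sums with 1 HFHC library. The 61 calls against the rest each pair 1 member with 1 class, so a member can count more than once. Of 595 recomputed values of these calls, 525 kept the call and 70 lost it. Of the 61 calls, 29 were kept in each setting in which they were tested, and 3 values had no adjusted p from DESeq2. Members called with DESeq2 numbered 10 of 17 in hepatocyte-like, 4 of 8 in cholangiocyte-like, 3 of 6 in macrophage-like, 4 of 9 in B-like, 4 of 8 in basophil or mast-like and 1 of 3 in globin-gated sums. Calls over all genes fell too, from 1994 higher and 2466 lower to 1156 and 1414 in hepatocyte-like sums. They fell from 223 and 367 to 61 and 148 in cholangiocyte-like sums. Macrophage-like sums went from 285 and 175 to 160 and 65, and B-like sums from 508 and 948 to 165 and 520. Basophil or mast-like sums went from 525 and 1037 to 266 and 560, and globin-gated sums from 97 and 280 to 26 and 44. In LSEC-like cells the 1 call, of Bst2, was lost with no filter. There 2 other members were called, 1 higher and 1 lower, where 198 genes were higher and 578 lower of 16230. The count was 0 without shared barcodes, with cells of at least 500 genes or with at least 20 cells. In that order, the genes called higher and lower were 84 and 39 of 2374, 113 and 44 of 2327, and 98 and 41 of 2377. In cholangiocyte-like cells 3 were called with barcode copies kept, where 173 genes were higher and 141 lower of 2255. Without the richest cell of each sum, a setting chosen after seeing the data, 5 were called, where 150 genes were higher and 252 lower of 2247. In macrophage-like cells 3 were called with no filter, without doublets, without the richest cell and with at least 5 cells. In that order, the genes called higher and lower were 214 and 212 of 14170, 230 and 126 of 2633, 195 and 113 of 2181, and 171 and 160 of 2297. In fibroblast-like cells 1 of 3 members tested was called without shared barcodes, where 20 genes were higher and 13 lower of 627. In B-like cells 1 of 3 members tested was called, as lower, with at least 5 cells a sum. There 234 of 1849 genes were called higher and more than that lower. The main settings tested 8 and 28 members in these classes, so the smaller counts cannot be read as lost calls alone. Leaving out each library in turn gave 0 to 1 in LSEC-like cells. The 1 was a member called lower without control 3, where 128 genes were higher and 64 lower of 1985. Vascular endothelial-like cells gave 0 to 2 (2 without control 2, where 111 genes were higher and 94 lower of 5885). Fibroblast-like cells gave 0 to 3 (0 without HFHC 1 or control 1). The 3 came without control 2, where 170 genes were higher and 131 lower of 1657. Classes of 2 libraries allowed no such fit, and cholangiocyte-like and macrophage-like sums could not be fitted without shared barcodes. The LSEC-like share difference between HFHC 4 and control 3 became -0.94 points at 2 members or more (interval -4.50 to 2.64), -6.47 without Ifitm3 and Bst2 at 2 members or more (-13.5 to 0.637), -3.97 unthinned and -13.2 at 500 UMIs. The hepatocyte-like difference of 31.2 points became 11.4 at 500 UMIs, 40.02 at 2 members or more, 50.3 unthinned and 36.9 without Ifitm3 and Bst2 at 2 members or more. The cause was not tested. Depth limits the genes tested: 12 of 35 members passed the filter in LSEC-like cells between diets.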
